A study of Caenorhabditis elegans with 2 samples.

Results

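The regions described here were the peaks of a tagged protein, T26A8.4, that lay in promoter windows of genes of a single strand. A summit, the highest point of a peak, was taken when it fell in a protein-coding gene's promoter window, from 1000 bp before to 200 bp past its annotated start, when no gene of the other strand had its window there, and when every tRNA, snoRNA and snRNA gene was more than 200 bp away. The rule took 858 of the 2993 summits of the combined peak list (28.7%, 95% Wilson interval 27.1 to 30.3) and used position only, not peak height. Of the other summits, 267 lay in windows of genes of both strands (called divergent here), 393 lay within 200 bp of an RNA gene, and 1475 lay outside promoter windows. In all, 1221 summits lay in a promoter window of some kind, and 96 of these were set aside for an RNA gene nearby.

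The data were chromatin immunoprecipitation sequencing of whole Caenorhabditis elegans larvae at the L4 stage, 48 hours old, grown synchronously after bleaching and starvation as L1. There was 1 group of 2 biological replicates. All animals were of strain OP692, which carries the transgene wgIs692, a T26A8.4 gene fused to TY1, EGFP and 3xFLAG tags, with an unc-119(+) rescue gene in an unc-119 (tm4063) mutant background, and the precipitation used an antibody to GFP. The line is a single integrated transgene, the signal is an average over all tissues of the larva, and read depth is unknown because peak lists carry no read counts.

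A promoter is the stretch of DNA just before a gene where transcription factors and RNA polymerase assemble. When neighbouring genes point away from each other they can share such a stretch, so a site that lies before genes of only 1 strand is easier to tie to its gene. In C. elegans many transcripts receive a spliced leader that replaces their first bases, so an annotated start is often downstream of the place where transcription begins, and genes in an operon are transcribed together from a promoter before the first of them. T26A8.4 is annotated as having a C3H1-type zinc finger, a fold known in many proteins for contacts with RNA.

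The 5 highest peaks found in both replicates are shown first, because they carried the highest signals of the set. Each window reaches 100 bp to either side of the summit and is read on the strand of the gene from 5′ to 3′, with letters from the RefSeq WBcel235 genome, which is the same assembly as the ce11 build of the peak lists. Capitals mark, among the searched motifs over 1.5 times as frequent at these summits as at gene starts, those that the windows hold. They are GAGAGA on the opposite strand (read as TCTCTC), the repeat CACACA on the opposite strand, and TGACGT on the opposite strand in the last window.
rpl-3, III:3867462-3867662, plus strand: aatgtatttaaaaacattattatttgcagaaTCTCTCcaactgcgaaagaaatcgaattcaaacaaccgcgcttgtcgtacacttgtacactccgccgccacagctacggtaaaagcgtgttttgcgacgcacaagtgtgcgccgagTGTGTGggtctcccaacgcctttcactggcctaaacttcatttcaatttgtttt
nspc-17, X:14525783-14525983, minus strand: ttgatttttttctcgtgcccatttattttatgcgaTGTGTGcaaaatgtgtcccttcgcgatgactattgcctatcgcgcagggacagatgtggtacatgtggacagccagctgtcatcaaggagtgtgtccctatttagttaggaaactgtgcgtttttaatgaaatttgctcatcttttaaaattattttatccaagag
rpl-35, III:7854581-7854781, plus strand: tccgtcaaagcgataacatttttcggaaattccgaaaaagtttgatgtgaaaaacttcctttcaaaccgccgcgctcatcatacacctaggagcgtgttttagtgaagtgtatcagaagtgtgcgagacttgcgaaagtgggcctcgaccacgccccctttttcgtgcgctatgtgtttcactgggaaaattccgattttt
cox-5A, III:12905105-12905305, plus strand: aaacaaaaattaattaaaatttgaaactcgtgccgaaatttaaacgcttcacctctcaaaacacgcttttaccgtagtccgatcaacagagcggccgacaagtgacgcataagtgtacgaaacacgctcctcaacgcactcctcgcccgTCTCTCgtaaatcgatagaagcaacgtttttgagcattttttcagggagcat
cdc-48.1, II:10563472-10563672, minus strand: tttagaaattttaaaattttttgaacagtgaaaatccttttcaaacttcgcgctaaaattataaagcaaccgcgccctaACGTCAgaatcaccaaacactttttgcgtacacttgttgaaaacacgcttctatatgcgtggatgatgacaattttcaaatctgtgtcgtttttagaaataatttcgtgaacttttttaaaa
Those of rpl-3, rpl-35 and cox-5A lay on chromosome III, before genes for ribosomal proteins and a cytochrome c oxidase subunit. Few of these more frequent motifs were in the windows: rpl-3 held a GAGAGA and a CACACA copy, both on the opposite strand, cox-5A a GAGAGA copy on the opposite strand, and rpl-35 none. Other searched motifs were not marked. The 8-letter word that these 5 windows shared most, AAAACACG with its reverse CGTGTTTT, was in 4 of them. It was no common feature of the whole set: 19 of the 858 windows held it (2.21%, 1.42 to 3.43), against 1.69% of flanking windows and 1.45% of windows at all gene starts. The word was chosen after these sequences were seen.

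A sequence that did recur was a short word next to GA-rich letters. When all 8-letter words were counted in the 858 windows and ranked by how many more windows held them than the flanks 600 bp away, the first was AGACGCAG, whose reverse is CTGCGTCT, in 109 windows (12.7%, 10.6 to 15.1). High-signal summits with its extended form, TCTGCGTCTC, are shown next with 20 bases on each side, the word in capitals on whichever strand it was written.
sec-61.G, V:10897333-10897382, minus strand: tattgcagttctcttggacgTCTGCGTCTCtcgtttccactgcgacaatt
ntl-11, IV:15471593-15471642, minus strand: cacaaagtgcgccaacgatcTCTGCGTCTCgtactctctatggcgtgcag
Y39B6A.43, V:18967832-18967881, minus strand: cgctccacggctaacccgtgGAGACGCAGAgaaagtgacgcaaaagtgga
These are the promoters of sec-61.G, which encodes the gamma subunit of the Sec61 protein translocation channel of the endoplasmic reticulum, of ntl-11, a subunit of the CCR4-NOT complex that shortens mRNA tails, and of Y39B6A.43. The extended word was in 81 windows (9.44%, 7.66 to 11.6), against 0.291% of the flanks and 0.900% of windows at all gene starts. It stood on the gene strand in 49 windows and on the opposite strand in 33. Summits of the other kinds, on which the word was not chosen, held it in 6.37% (divergent), 7.66% (outside promoters) and 1.53% (near RNA genes) of windows. The word was therefore spread over promoter and other summits. It was least frequent at summits near RNA genes.

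Single examples of other motifs follow, with the motif in capitals and 20 bases on each side. Each is from a high-signal peak found in both replicates, which is not necessarily the highest that held the motif. The motifs are CTGCGTC (eelo-2), the GC box GGGCGG (sqd-1), TTGCGC (sec-61.G) and the E box CACGTG (tos-1).
eelo-2, IV:17249887-17249933, plus strand: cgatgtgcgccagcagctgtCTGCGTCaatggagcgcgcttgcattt
sqd-1, IV:6323920-6323965, plus strand: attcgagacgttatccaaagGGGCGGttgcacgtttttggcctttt
sec-61.G, V:10897416-10897461, minus strand: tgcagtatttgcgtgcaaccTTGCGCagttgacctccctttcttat
tos-1, V:9344234-9344279, minus strand: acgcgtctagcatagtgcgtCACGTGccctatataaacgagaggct
The eelo-2 and sec-61.G sequences are from summits at −222 bp and −232 bp from their gene starts, sqd-1 at −324 bp, and tos-1 at −74 bp.

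The 858 summits lay in the windows of 799 genes, 4.0% of the 19973 protein-coding genes. Most summits pointed to 1 gene: 833 lay in the window of a single gene and 25 in the windows of 2. Of the genes, 723 held 1 summit, 68 held 2, and 8 held 3. The 8 were lgg-1, which encodes an Atg8-family autophagy protein, mml-1, a Mondo-family transcription factor, kin-29, a salt-inducible-kinase family protein, clh-4, a chloride channel, pro-1, and C55B7.3, ZK632.9 and ZK909.3. Strand made no difference to the count, with 421 summits before plus-strand genes and 437 before minus-strand genes. Of the 799 genes, 9 also had a divergent summit.

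The protein's own gene and its rescue marker were not among them. T26A8.4, on the minus strand of chromosome IV, had its nearest summit 24622 bp from its start, outside promoter windows. For unc-119 on chromosome III the nearest was at −53605 bp and divergent.

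The highest summits were those of rpl-3, nspc-17 and rpl-35. The combined list gave rpl-3, which encodes large ribosomal subunit protein uL3, a signal of 1884, with 869 in the ranked list of replicate 1 and 1021 in that of replicate 2. For nspc-17, of a nematode-specific peptide family, the signals were 1552, 696 and 777 in the same order of lists. The peak before rpl-35, which encodes ribosomal protein uL29, had 1100, 511 and 610. All 3 were far above the median signal of 123.1 in the combined list, and all 3 ranked the same way in each replicate. Signal is the authors' peak score, has no stated unit, and is compared within a list only.

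Another 3 genes had combined signals near 1000, each with a value in both ranked lists. cox-5A, a subunit of cytochrome c oxidase in the respiratory chain, had a combined signal of 1077, with 539 in replicate 1 and 518 in replicate 2. cdc-48.1, an ATPase that pulls ubiquitinated proteins out of complexes, had 1056, with 476 and 581. rpa-2, a subunit of the single-strand DNA binding protein RPA, had 976, with 494 and 490. The scale of each list is unstated, so the values of the 2 replicates are not ranked against each other.

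**Figure D1:**
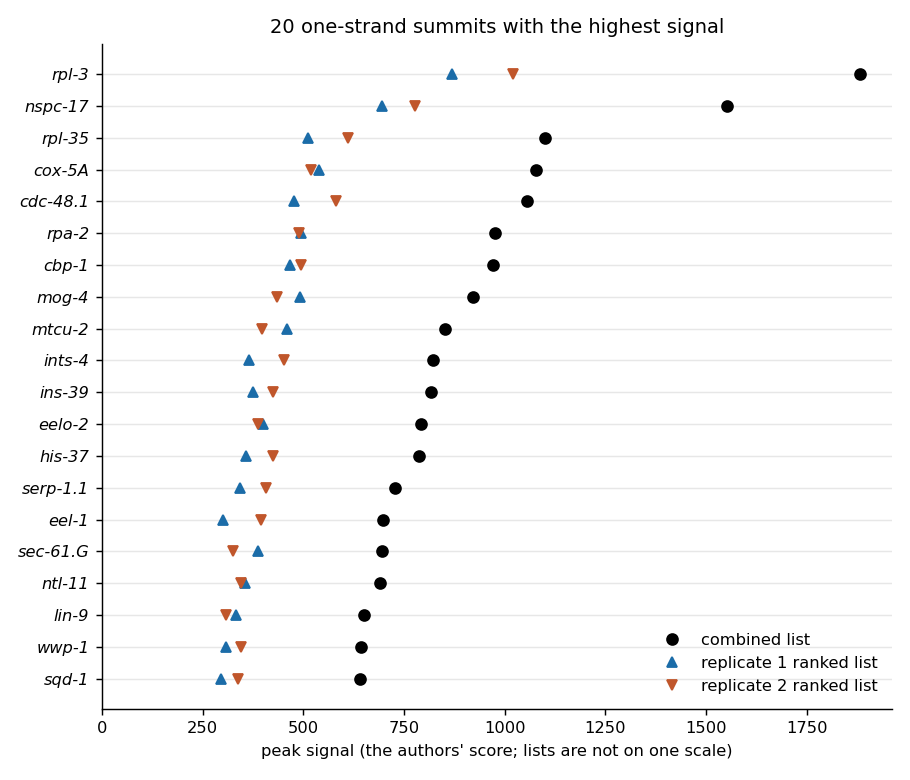
Peak signal (the authors' score, horizontal axis) of the 20 one-strand summits with the highest combined signal that overlap thresholded peaks of both replicates, one row per nearest gene. Black circles are the combined list and triangles the ranked lists of replicate 1 (up) and replicate 2 (down); the lists are not on one scale. The combined signal runs from 1884 at rpl-3 to 641 at sqd-1.

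Among the 20 highest summits the next were those of cbp-1, the worm CBP/p300 histone acetyltransferase (signal 972, summit at −889 bp), mog-4, a splicing-related RNA helicase (922, −259 bp), and mtcu-2, a mitochondrial tRNA modification protein (851, −466 bp). The mtcu-2 summit was the only one of the 20 inside the body of an upstream gene of the same strand, with a gap of 52 bp between the genes. ints-4, an Integrator subunit (823), was the only one downstream of its start, at +10 bp. The remainder were ins-39 (817), an insulin-related peptide gene, eelo-2 (792), his-37, a histone H4 gene (786), serp-1.1 (728), eel-1, a HECT-type ubiquitin ligase (698), sec-61.G together with F32D8.13 (695), ntl-11 (690), lin-9, a subunit of the DREAM repressor complex (650), wwp-1, a ubiquitin ligase (643), and sqd-1, an RRM-domain protein (641).

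Summits gathered just upstream of the gene start. The median offset was −244 bp, with quartiles of −491 and −75 bp. Within 300 bp upstream lay 350 summits (40.8%, 37.6 to 44.1), in 24.7% of the sequence that meets the rule, a ratio of 1.65 (1.52 to 1.79). That sequence, all positions where a summit would have been taken, was 19325950 bp long, 19.3% of the genome. The densest 100 bp began at −200 bp, with 140 summits and a ratio of 1.98 (1.70 to 2.30). Farther than 500 bp upstream there were 207 summits, a ratio of 0.576 (0.511 to 0.647), and from the start to 200 bp downstream there were 145, a ratio of 0.985 (0.848 to 1.14). Between these, the 100 bp from −400 bp had a ratio of 1.28 (1.05 to 1.56) and the 100 bp from −500 bp one of 0.954 (0.757 to 1.20). The excess thus covered about 400 bp before the start, and downstream of the start there was neither an excess nor a deficit beyond counting error.

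**Figure D2:**
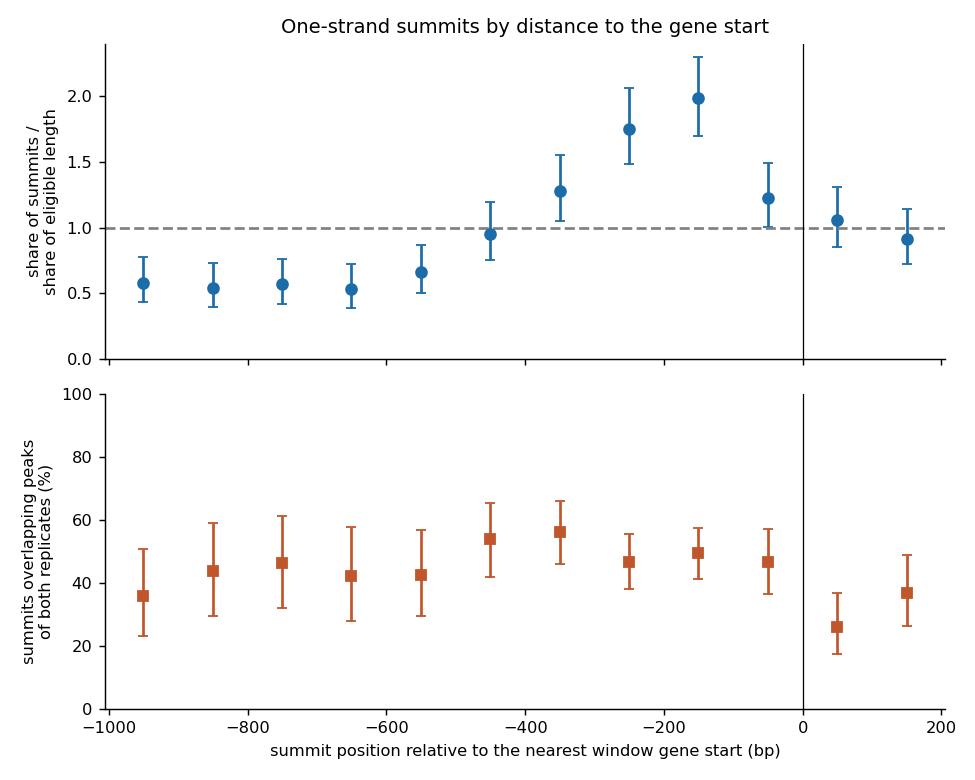
One-strand summits in bins of 100 bp by position relative to the nearest window gene's start (horizontal axis, bp, upstream negative). Upper plot: share of the 858 summits divided by the share of eligible sequence, with the dashed line at 1. Lower plot: percent of the summits that overlap thresholded peaks of both replicates; bars are 95% Wilson intervals in both. The upper ratio peaks at 1.98 in the 100 bp from −200 bp, and the lower share is 25.97% in the first bin downstream of the start.

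Agreement of the replicates changed across the start. Of summits within 300 bp upstream, 47.7% (42.5 to 52.9) overlapped a thresholded peak of both replicates, against 31.0% (24.1 to 39.0) of those downstream of the start, a difference of 16.7 percentage points (95% Newcombe interval 7.20 to 25.4). Between 301 and 500 bp upstream the share was 55.1% (47.3 to 62.7), and farther upstream 42.0% (35.5 to 48.8). Median signal moved in the same way: 131 within 300 bp upstream, 138 between 301 and 500 bp, 114 farther out and 110 downstream. Of the downstream summits, 81 lay in annotated coding sequence.

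Most summits stood in sequence free of other protein-coding genes. Upstream and in no such gene were 625 summits (72.8%, 69.8 to 75.7), 1.28 times the share of eligible sequence (1.23 to 1.34). Inside the body of an upstream gene of the same strand lay 36 (4.20%, 3.05 to 5.75), a ratio of 0.235 (0.171 to 0.323), and inside genes of the opposite strand only lay 52 (6.06%, 4.65 to 7.86), a ratio of 0.728 (0.559 to 0.944). The summits in same-strand gene bodies also had the lowest share of the 4 settings, with 8 of 36 (22.2%, 11.7 to 38.1) in both replicates, against 310 of 625 (49.6%, 45.7 to 53.5) in gene-free sequence. Of all 858 summits, 56 lay inside annotated ncRNA genes, 2 inside miRNA genes and 2 inside pseudogenes. The share of eligible sequence in such genes was not computed, so these counts show neither an excess nor a deficit.

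The spacing to the gene upstream was another difference among the genes. Where the upstream neighbour was on the same strand and ended at most 500 bp before the start, 220 of 3532 genes held a summit (6.23%, 5.48 to 7.07). With a gap over 2000 bp, 85 of 2857 did (2.98%, 2.41 to 3.66), a difference of 3.25 percentage points (2.23 to 4.27). The share among all genes that meet the rule somewhere was 4.05% of 19746. The highest share was at gaps above 200 bp and up to 500 bp, with 7.18% of 1658 genes (6.03 to 8.52). There 102 of the 132 nearest summits lay in the gap itself, 0.179 per kb of gap within the window, against 0.0257 per kb at gaps over 5000 bp. These densities cover unlike distances from the start. A gap of up to 500 bp holds only sequence within 500 bp, while one over 5000 bp was counted to 1000 bp. Farther than 500 bp upstream summits were sparser (ratio 0.576), so gap length and distance are not told apart by these densities. At gaps of 100 bp or less, 35 of 48 summits lay downstream of the start and 3 in the gap. These gaps hold only 58.4 kb, so the 3 amount to 0.0513 per kb, above the value at gaps over 5000 bp, again over unlike distances. Gaps this short are typical of genes within an operon, and no operon annotation was used. Counts at genes with an upstream neighbour on the other strand are not compared, since the rule itself removes shared windows there.

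The chromosomes were not equally represented. Chromosome III held 153 summits, 1.41 times its share of eligible sequence (1.22 to 1.62), and V held 126, a ratio of 0.590 (0.502 to 0.692). On X there were 156 (1.18, 1.02 to 1.36). Ratios on I (1.15, 0.982 to 1.34), II (1.09, 0.942 to 1.25) and IV (0.924, 0.786 to 1.08) had intervals that include 1. The share in both replicates ran from 50.7% on I to 41.0% on X.

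Replicate support over the whole set was near that of all peaks. Of the 858 summits, 385 (44.9%, 41.6 to 48.2) overlapped, by at least 50% of the shorter peak, a thresholded peak of both replicates, against 44.9% of all 2993 summits. A further 105 overlapped a peak of replicate 1 only, 156 of replicate 2 only, and 212 of neither. The conservative list held 678 (79.0%, 76.2 to 81.6), against 80.4% of all summits. Neither share sets these summits apart from the full list.

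Against the other kinds of summit the shares did differ. One-strand summits were in both replicates less often than divergent ones (44.9% against 60.3%, a difference of −15.4 points, −22.0 to −8.58) and than those near RNA genes (69.97%, −25.1, −30.5 to −19.3). They were more often in both than summits outside promoters (35.5%, difference 9.35, 5.22 to 13.5). Signal moved with these classes: the median was 123.1 for one-strand summits (quartiles 95.8 and 188), 156 for divergent, 177 near RNA genes and 110 outside. In quartiles of signal set over all 2993 summits, strongest first, one-strand summits had 96.4%, 55.1%, 12.1% and 13.4% in both, divergent summits had 97.1%, 63.3%, 6.38% and 16.7%, and summits outside promoters 93.6%, 53.7%, 13.8% and 13.3%. None of the 8 within-quartile differences had an interval that leaves out 0. The top quartile held 25.8% of one-strand summits, against 39.3% of divergent and 15.9% of outside ones.

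Height went with the share of summits close to the start, but not with the median offset. The share of summits within 300 bp upstream was 48.0% (41.5 to 54.5) in the strongest quartile, then 43.9%, 38.8% and 32.1% (26.1 to 38.7) in the weakest. The median offsets, strongest quartile first, were −284, −203.5, −225 and −251 bp, so the strongest quartile had the median farthest upstream. Of the 858 summits, 773 had a summit within 150 bp in both ranked lists. There replicate 1 and replicate 2 signals gave a Spearman rho of 0.67 over regions that share the same 2 libraries. Within the quartiles it was 0.73, −0.14, −0.42 and −0.39, strongest first, so a positive rho was seen only in the top quartile. The quartiles were cut on the combined signal, which draws on both replicates. Median signals were 64.9 in replicate 1 and 67.4 in replicate 2.

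GC content was raised at the summits. Mean GC was 43.3% in the windows, against 36.9% in the flanks, and 623 of 858 summits (72.6%, 69.5 to 75.5) exceeded their own flanks. All sequence that meets the rule had 35.1% GC. Fewer divergent summits exceeded their flanks (64.0%, difference 8.57 points, 2.25 to 15.1), more near RNA genes did (88.3%), and those outside promoters were similar in level (75.7%, difference −3.05, −6.79 to 0.606). The rise was narrow: in bins of 25 bp the mean reached 47.8% just before the summit and was 37.3% just beyond 100 bp upstream.

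**Figure D3:**
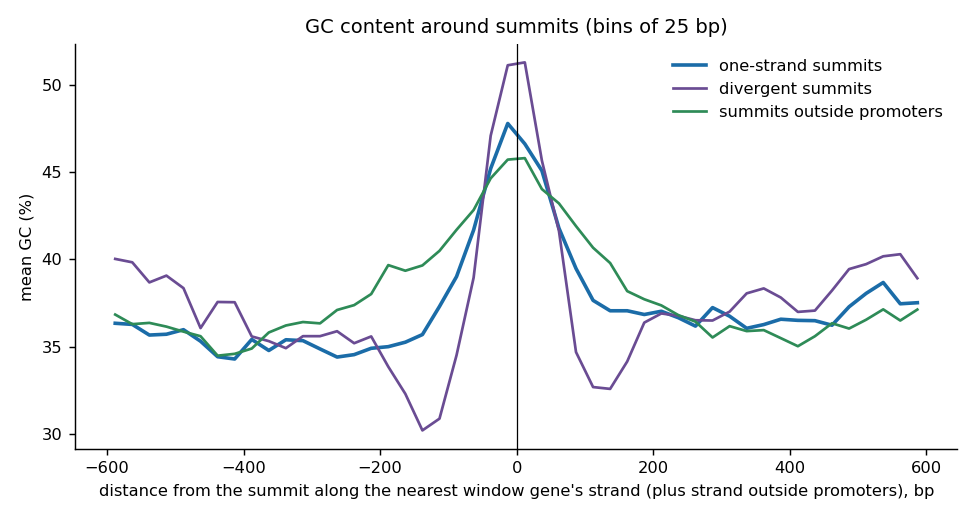
Mean GC content (percent, vertical axis) in bins of 25 bp by distance from the summit (horizontal axis, bp). Lines are one-strand, divergent and outside summits; windows run along the strand of the nearest window gene, or along the plus strand outside promoters. One-strand summits reach 47.8% and divergent summits 51.3%, and the divergent line drops to 30.2% on the upstream side.

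On the gene strand the windows held 26.5% A, 23.1% C, 20.2% G and 30.2% T, against 31.4%, 18.8%, 18.1% and 31.7% in the flanks. Both replicate-supported and all one-strand summits had this shape, with 26.1% A and 29.6% T in the set of 385. At all gene starts, 100 bp upstream, T was 36.4% and G 14.6%, so the summits had less T and more G than those windows.

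GAGA repeats were the most frequent of the motifs that stood above the level at gene starts. All 18 motifs were searched on both strands of each window, and for scale in windows of the same length at 6 positions around every gene start (119836 windows in all). GAGAGA was in 291 of 858 windows (33.9%, 30.8 to 37.1), against 11.4% of the start windows and 10.02% of the flanks. On the gene strand it was in 15.5% (13.2 to 18.1) and on the opposite strand, where the gene strand reads TCTCTC, in 22.1% (19.5 to 25.04). Start windows leaned to the same strand, with 4.68% and 7.16% over the 6 positions together. The lean there was largest in windows centred 100 bp upstream, with 4.63% and 12.3%. Runs of at least 8 alternating letters were in 68 windows (7.93%), against 1.73% of windows centred 300 bp before all starts.

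The worm promoter element CTGCGTC, the core of the word shown above, had the largest ratio. It was in 120 windows (13.99%, 11.8 to 16.5), against 2.04% of start windows (ratio 6.85) and 1.17% of flanks. Its copies were central, with 72 of 132 (54.5%, 46.0 to 62.8) in the middle of 3 equal parts of the window. GAGAGA copies were spread, with 199 of 615 (32.4%, 28.8 to 36.2) there. Windows with CTGCGTC were in both replicates more often than those without (54.2% against 43.4%, difference 10.8 points, 1.20 to 20.1), with a median signal of 139 against 119.1. For GAGAGA the shares were 47.1% and 43.7% (3.34, −3.66 to 10.3).

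Other motifs over 1.5 times as frequent as in the start windows were TTGCGC (13.5% against 4.35%), the GC box GGGCGG (10.1% against 3.64%), CACACA (22.4% against 8.85%), the E box CACGTG (7.34% against 3.41%), the E2F site TTTCCCGC (1.75% against 1.02%) and the cyclic AMP element TGACGT (9.67% against 6.44%). The E2F site was in only 15 windows (interval 1.06 to 2.86), which includes the 1.21% of start windows centred 700 bp upstream. TGACGT (7.87 to 11.8) was just over the 1.5 limit across all start windows. It was under that limit against those centred 100 bp downstream (7.09%), though its interval lay above their share. TTGCGC was central too, with 77 of 143 copies (53.8%, 45.7 to 61.8) in the middle part. Motifs below the start windows were TATAAA (12.2% against 23.9%), runs of 8 T (12.4% against 21.6%), the splice acceptor TTTTCAG (11.3% against 20.4%), ACTACA (5.48% against 9.26%), the GATA site TGATAA (12.9% against 19.6%), the heat shock element (10.1% against 13.6%) and CCAAT (28.0% against 35.5%). GC content also differed between summits and start windows, and its part in these shares was not tested. A motif match describes letters only.

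**Figure D4:**
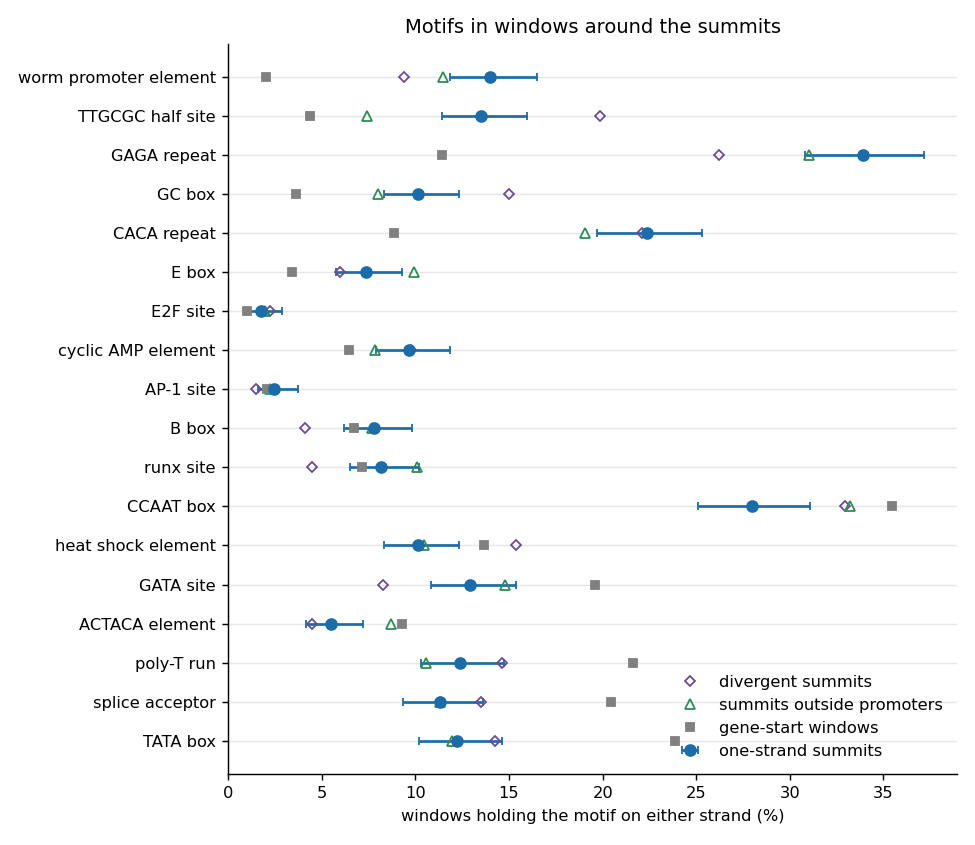
Percent of windows that hold each of 18 motifs on either strand (horizontal axis). Filled circles with 95% Wilson intervals are the 858 one-strand summits, diamonds divergent summits, triangles summits outside promoters and squares windows at all gene starts. The worm promoter element is at 13.99% against 2.04% at gene starts, and the TATA box at 12.2% against 23.9%.

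Set beside the other summits, the motif make-up differed in part. GAGAGA was more frequent at one-strand than at divergent summits (26.2%, difference 7.70 points, 1.32 to 13.6), while the interval against summits outside promoters included 0 (31.1%, 2.87, −1.05 to 6.84). For CTGCGTC the difference was 4.62 points (−0.00587 to 8.47) against divergent summits, which had 9.36%, and 2.53 (−0.237 to 5.44) against those outside, which had 11.5%. Near RNA genes CTGCGTC was in 3.56% of windows (difference 10.4, 7.25 to 13.3). TTGCGC stood at 13.5% in one-strand windows, 19.9% in divergent and 7.39% in outside windows, and the GC box at 10.1%, 15.0% and 8.0%.

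Both leading motifs were rarer downstream of the start. GAGAGA was in 36.9% of summits within 300 bp upstream and in 16.6% of downstream ones (difference 20.3 points, 11.9 to 27.6). CTGCGTC was in 18.0% and 5.52% (12.5, 6.29 to 17.6). At gene starts in general they also fell off: GAGAGA was in 16.3% of windows centred 100 bp upstream and 9.94% of those centred 100 bp downstream, and CTGCGTC in 3.25% and 1.40%. Summits over 500 bp upstream held GAGAGA in 35.7%, a difference from the nearest band of 1.11 points (−7.21 to 9.19).

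Genes for the protein synthesis machinery were frequent among the 799. Of 83 cytosolic ribosomal protein genes, 20 held a one-strand summit (24.1%, 16.2 to 34.3, against 4.0% of all genes), and 28 others held a divergent summit only. The 20 summits sat at a median of −287.5 bp, and 14 were in both replicates. After rpl-3 and rpl-35 came rpl-24.2, annotated as a ribosome biogenesis factor, with a combined signal of 420 (239 in replicate 1 and 197 in replicate 2). Next was rps-24, of the small subunit, with 384 (195 and 183). The lowest was rpl-30, with 64.0 (37.8 and 16.02), in neither thresholded list. Translation factors had 5 of 46 (10.9%, 4.73 to 23.0), led by the initiation factor 3 subunits eif-3.C (589) and eif-3.B (291) and by elongation factor eef-1A.2 (278). Mitochondrial ribosomal proteins were nearer the level of all genes, with 4 of 70 (5.71%, 2.24 to 13.8) led by mrpl-28 (319), mrpl-55 (144) and mrpl-50 (138), and 7 others held a divergent summit only. No aminoacyl-tRNA synthetase of 31 held a one-strand summit (upper bound 11.0%), and 2 held a divergent one.

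Energy and proton transport genes followed. Oxidative phosphorylation had 10 of 70 genes (14.3%, 7.95 to 24.3). After cox-5A these were led by cox-5B, another cytochrome c oxidase subunit (312, summit at −44 bp), and cyc-1, annotated as a cytochrome c domain protein (248, −271 bp). The vacuolar ATPase, which acidifies lysosomes, had 4 of 21 (19.0%, 7.67 to 40.001), with vha-12 at 232, vha-13 at 115.04 and unc-32 at 104; only the first was in both replicates.

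Ubiquitin and protein folding genes were also represented. Among ubiquitin conjugation genes 11 of 64 (17.2%, 9.88 to 28.2) held a summit, led by cdc-48.1, ubc-3, an E2 conjugating enzyme (234), and uba-1, the E1 activating enzyme (185). Proteasome subunits had 2 of 33 (6.06%, 1.68 to 19.6). Chaperones had 6 of 67 (8.96%, 4.17 to 18.2), led by the Hsp70-family genes hsp-3 (425) and hsp-1 (307), with dnj-9, a J-domain cochaperone (418), between them. The interval of ubiquitin conjugation lay above 4.0%, that of the proteasome did not.

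Several lists of nuclear processes had a similar level. Nuclear pore and transport genes had 7 of 40 (17.5%, 8.75 to 31.95), led by imb-3, an importin (265), npp-18, a nucleoporin of the Seh1 type (257), and npp-6 (248). RNA polymerase subunits had 4 of 24 (16.7%, 6.68 to 35.9), with rpb-11 of polymerase II at 428, rpac-19 of polymerases I and III at 222 and rpc-2 at 124. The cell cycle and replication list had 8 of 63 (12.7%, 6.58 to 23.1). Besides cdc-48.1 and rpa-2, pcn-1, the sliding clamp PCNA, had 347 (178 in replicate 1 and 169 in replicate 2). Members were matched by symbol, and not all are replication genes. cdc-48.1 was counted in the ubiquitin list too, and mcm-3AP (99.4) is annotated as a PCI domain protein. The share without such genes was not computed. The DREAM and Rb list had 4 of 11 (36.4%, 15.2 to 64.6), namely lin-9 (650), lin-36 (130), lin-52 (110) and lin-13 (79.6), all on chromosome III, of which only lin-9 and lin-36 were in both replicates. The summit of lin-52, at −700 bp from its start, lay in the windows of 2 genes. The CCR4-NOT and mRNA decay list held 4 of 31 (12.9%, 5.13 to 28.9), among them ntl-11 and, with lower signals, ntl-2 (322) and cgh-1, a DEAD-box helicase of RNA granules (162). The fourth of the list, matched by its symbol, was pan-1 (107), which is annotated as a P-granule-associated protein and not as a decay enzyme. Splicing and snRNP genes had 2 of 50 (4.0%) and histones 2 of 82 (2.44%), both at or under the level of all genes for one-strand summits. A divergent summit only was held by 9 other splicing and snRNP genes and by 8 other histone genes.

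Developmental timing genes had a high share on small counts. Of 15 heterochronic genes, which set the order of larval stages, 5 held a summit (33.3%, 15.2 to 58.3). din-1, which encodes a partner of the nuclear receptor DAF-12, had 285 (122 and 152 in the replicates) at −686 bp. ain-1, a microRNA-complex protein of the GW182 type, had 283 (141 and 131) at −949 bp, and lin-66 had 236 (139.5 and 118.6) at −381 bp. lin-28, an RNA-binding protein that blocks let-7 maturation, had 134 at −558 bp and passed in replicate 1 only, and lin-14 had 115.2 at −45 bp and passed in neither. The median offset of these 5, −558 bp, was farther upstream than that of all one-strand summits. Dosage compensation had 2 of 10, sdc-2 (199) and dpy-27 (157).

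Nuclear hormone receptors, a large family in worms, were at the level of all genes with 11 of 269 (4.09%, 2.30 to 7.17), led by nhr-49, a regulator of fat metabolism (209), nhr-119 (178) and nhr-1 (168). Cuticle collagens were too, with 7 of 180 (3.89%, 1.90 to 7.81) led by col-63 (236), col-144 (198) and col-20 (145). Their median offset was 80 bp downstream of the start, and 1 of the 7 was in both replicates. Actin and tubulin genes had 5 of 28 (17.9%, 7.88 to 35.6), with tba-2, an alpha tubulin, at 491, tbg-1, gamma tubulin, at 222 and tba-7 at 91.4. The summit of tbg-1 was also that of rpac-19, at −87 bp from rpac-19 and −818 bp from tbg-1.

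Chemoreceptors, F-box genes and C-type lectins were below the level of all genes. Chemoreceptors had 3 of 1309 (0.229%, 0.0780 to 0.672), srh-2 (298), srbc-58 (144) and srw-95 (88.4). F-box genes had 2 of 322 (0.621%, 0.170 to 2.24). No C-type lectin of 240 held a one-strand summit (upper bound 1.58%), and 1 held a divergent one. The intervals of the remaining lists included the 4.0% of all genes: no gene of 58 in the sperm families (upper bound 6.21%) and no homeobox ceh gene of 63 (5.75%) held a one-strand summit. Cytochrome P450, UGT and GST genes had 4 of 185 (2.16%, 0.844 to 5.43), led by gst-9 (118), ugt-14 (111) and ugt-50 (90.1), none of them in both replicates. Neuropeptide genes had 2 of 140 (1.43%, 0.393 to 5.06). The srh-2 summit shared a wide interval, V:723650-727993, with that of fbxb-72 (450).

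**Figure D5:**
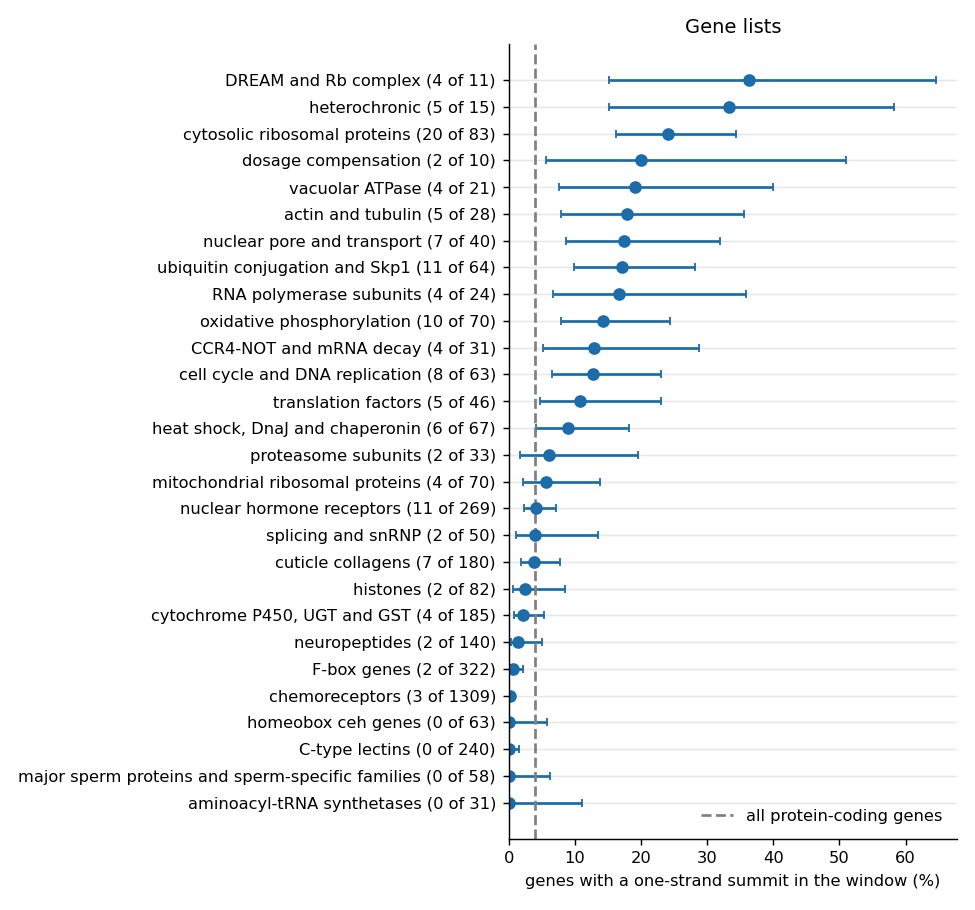
Percent of the protein-coding genes of each of 28 lists that hold a one-strand summit in their window (horizontal axis), with 95% Wilson intervals and the count in brackets; the dashed line is the 4.0% of all protein-coding genes. Cytosolic ribosomal proteins are at 24.1% and chemoreceptors at 0.229%.

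Values at the limits of the rule were as follows. The outermost summit inside was at −998 bp (F41F3.8, signal 197) and the first beyond it at −1004 bp (col-145, 124). Downstream, gst-7 at +199 bp (77.0) was inside and clh-6 at +203 bp (106) outside. The nearest RNA gene was 208 bp from the summit of W06H8.6 (260) and 198 bp from that of Y54G2A.45 (18.9), which was set aside. The summit of lep-2 at −828 bp (242) lay at −1003 bp from the opposite-strand start of egrh-2, just beyond the window of egrh-2, and so was kept. A divergent summit (23.7) lay at +191 bp from the start of mdt-26, just inside the window of mdt-26. Scores at the authors' cutoff of 830 were kept (unc-116), and the lowest signal was 2.13 at cept-2, 1 of 26 summits with a signal under 20. The cept-2 interval nonetheless overlapped thresholded peaks of both replicates, so a very low combined signal did not always mean absence from the replicate lists.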

How the data were processed

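Peaks came from 2 replicates of 1 group, so no test between conditions was made and no p-value is given. The authors deposited peak lists on ce11, thresholded by the irreproducible discovery rate, per the file listings. In the deposited lists the signal and the integer score are scores of unstated scale, column 9 is a q-value as −log10 (not used in any result), and column 10 is the summit offset in bases. No source used here gives the aligner, peak caller or depth, and a possible control library was not analysed here. Another 16 per-input columns that no label ties to a replicate were not used.

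Summits were placed on Ensembl release 115 gene starts and RefSeq WBcel235 sequence with Python 3.11.15, NumPy 2.4.6, pandas 2.3.3 and SciPy 1.17.1, and figures were drawn with Matplotlib 3.10.9. Eligible sequence was counted base by base. Intervals are 95% Wilson (shares) and Newcombe (differences), for counting error only, since peaks are not independent replicates. Ratio intervals treat eligible length as fixed. Classification, overlap and motif search were tested on simulated data. The members, 28 gene lists and 18 motifs were chosen with earlier results of these data known. Lists were matched by gene symbol. Genes named were those of the 20 highest summits in both replicates, the 3 highest in each list with at least 3, T26A8.4, unc-119 and those nearest each limit; any others were chosen after their values were seen. Alternatives were other lists, windows, overlaps and RNA gene distances, 1 summit per interval, and each replicate's own list.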

Additional observations from a re-analysis of the deposited data

How the results depend on the processing

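Of 88 alternative values, 10 shares or medians lay outside the 95% interval of the reported value, 2 differences changed sign, and 3 differences changed whether their interval included 0. With shorter windows, of 50 bp to either side, 78.7% of summits exceeded their flanks in GC, against 72.6%. The one-strand share (28.7%) was 31.4% with no RNA gene filter, 34.3% with a window of 2000 bp upstream, 21.8% with 500 bp upstream and 100 bp downstream, and 26.5% to 28.1% from a single replicate's list. The share within 300 bp upstream (40.8%) was 27.2% in the wide window, 61.1% in the narrow one and 45.9% in the 50% of summits with the highest signal, and the median offset was −450.5 bp and −181 bp in the wide and the narrow window, which by construction hold more or less distant sequence. In the high-signal summits GAGAGA on the gene strand was 19.3%, the replicate-support difference to divergent summits was −6.46 points, with an interval that includes 0, and the GAGAGA difference to summits outside promoters was −0.00598 points, a changed sign. That last difference was 4.25 points in the narrow window, where its interval leaves out 0. In the wide window the GAGAGA difference to divergent summits was 3.40 points, with an interval that includes 0, and the difference in summits above 40% GC was −4.23 points against 1.46. The cause was not tested for the high-signal changes. No paired analysis was possible because there is 1 group. Depth, which limits how far a missing peak can be read, is unknown.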

Other observations

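Shorter and neighbouring forms of the extended word were also counted. CTGCGTCTC, without the first T of the printed form, was in 97 one-strand windows (11.3%, 9.36 to 13.6), with a median signal of 140 and 55.7% in both replicates. AGAGACGC, which overlaps the word on the side of the GA-rich letters, was in 80 (9.32%, 7.56 to 11.5) with a median signal of 129 and 46.3% in both. Its neighbour on the other side, CGCAGAGA, was in 57 (6.64%, 5.16 to 8.51) with a median signal of 168 and 61.4% in both. These words were ranked on the same windows in which they are counted here, and they overlap each other.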
